A study of Mus musculus with 6 samples.

Results

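Respiratory complex I, the NADH:ubiquinone oxidoreductase of the inner mitochondrial membrane, was followed through the 37 target IDs of the deposited array table that start with NDUF, of 30828 target IDs in all. The gene names came from these IDs and not from any measured value. The cells were MC38, a mouse colorectal cancer cell line grown in RPMI with foetal calf serum. One group of 3 samples had been given the free acid of eicosapentaenoic acid (EPA), a polyunsaturated lipid of fish oil, at 50 µM for 24 h, and the other 3 samples were controls. Neither a vehicle nor an incubation time is named for the controls, and effects of these cannot be told apart from that of EPA. Each sample of total RNA was read on 1 Illumina mouse bead array, and the values are quantile-normalised intensities on a linear scale. Whether replicates were grown as separate cultures is not stated, and p-values here describe only the spread among the 6 samples, which may be technical.

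Complex I takes electrons from NADH, passes them over a flavin and a chain of iron-sulphur clusters to ubiquinone, and pumps protons across the inner membrane. It is an L-shaped assembly of a peripheral arm, with an N module that oxidises NADH and a Q module that reduces ubiquinone, and of a membrane arm with a proximal and a distal part. Core subunits carry the catalysis, accessory subunits surround them, and assembly factors help to build the complex without staying in it. The core subunits of the membrane arm are encoded in mitochondrial DNA, and all other subunits in the nucleus.

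Of the 37 targets, 36 carried a current gene symbol, and NDUFA12L is an older name of Ndufaf2, an assembly factor, with which it was grouped here. The set held 13 NDUFA, 10 NDUFB, 2 NDUFC, 7 NDUFS and 2 NDUFV genes, Ndufab1 and 2 assembly factors. Ndufa4 bears the name of the family but is now counted as a subunit of cytochrome c oxidase. To be tested, a target had to exceed a background limit of 40.22 on every array of one group or the other, and 36 of the 37 did so, in both groups. The exception was Ndufs1, the largest core subunit, whose intensities of 28.5, 27.3 and 22.3 with EPA and of 30.3, 37.4 and 21.3 in control cells all lay below the limit, so that no fold is given for it.

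In EPA cells 13 of the 36 tested NDUF genes fell, 2 rose and 21 did not pass the test. These are shares of 36.1% lower and 5.56% higher, where over all 9135 genes tested 15.9% were lower and 18.8% were higher (limma, Benjamini-Hochberg adjusted p under 0.05), or 34.7% in either direction. The median log2 fold change of the NDUF genes was -0.19, against 0.01 over all genes tested, and 27 of the 36 had a negative value. The changes were small, as they were for called genes in general. Called NDUF genes had a median absolute log2 change of 0.40, against 0.39 for all called genes. No NDUF gene was called with a change of 2-fold or more. Only 70 of all 9135 genes tested were, so their absence among 36 genes does not set the NDUF genes apart. The 3 EPA arrays lay entirely below the 3 control arrays for 17 NDUF genes and entirely above them for 4, where 23.0% and 25.1% of all genes tested did so.

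**Figure D1:**
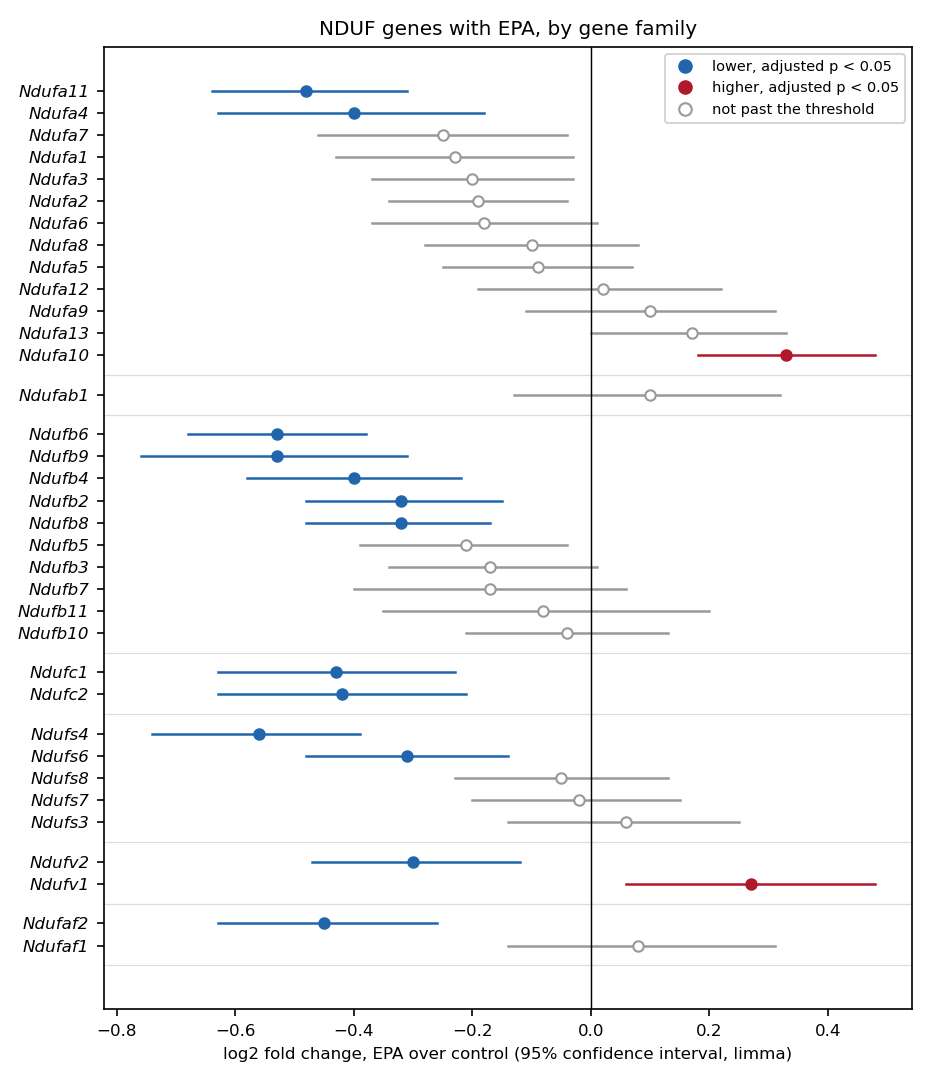
Log2 fold change of EPA over control for 35 NDUF genes tested, grouped by gene family, with points for the limma estimate and bars for its 95% confidence interval. Filled blue points are the 13 genes that fell, filled red points the 2 that rose (Ndufa10 and Ndufv1), and open points 20 that did not pass. All 10 NDUFB genes lie left of 0.

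The shift was seen on each EPA array. Relative to the mean of the control arrays, the median NDUF gene stood at log2 -0.16, -0.22 and -0.20 on EPA arrays 1, 2 and 3, and at 0.02, 0.01 and -0.02 on control arrays 1, 2 and 3. The median of all genes tested was 0.02, 0.01 and 0.01 on the EPA arrays. Among the 13 genes that fell, the lowest EPA value was on array 1 for 4 genes, on array 2 for 5 and on array 3 for 4.

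**Figure D2:**
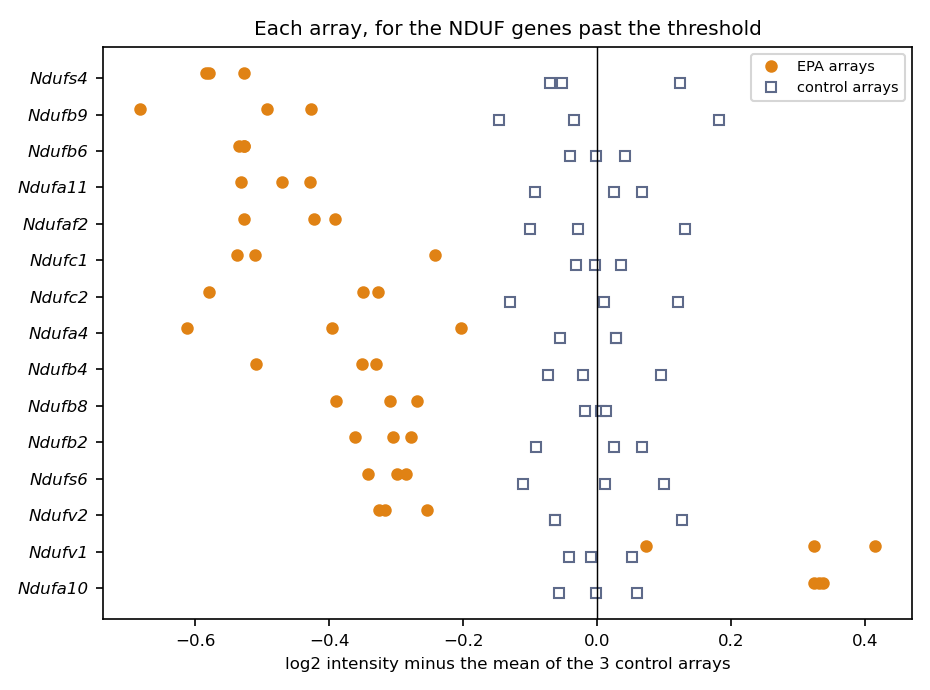
Log2 intensity of each array minus the mean of the 3 control arrays, for the 15 NDUF genes past the threshold, with EPA arrays as filled circles above the control arrays, drawn as open squares. Equal values overlap. The 3 EPA points of each gene stand clear of its control points, most narrowly for Ndufv1. The genes were chosen by the test on these same values, so the separation adds no further evidence for the calls.

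The NDUF signals were bright, with a median intensity of 2273 against 174 over all genes tested. Among the 1301 genes with a mean intensity of 1000 or more, 22.6% fell and 23.2% rose, and among the 25 NDUF genes of that brightness 9 (36.0%) fell and 2 rose. Among the 11 dimmer NDUF genes 4 (36.4%) fell and 0 rose by limma, with 1 higher at an unadjusted p under 0.05. Over all 9135 genes tested, bright and dim together, 15.9% fell and 18.8% rose, and the dimmer genes were not counted apart.

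**Figure D3:**
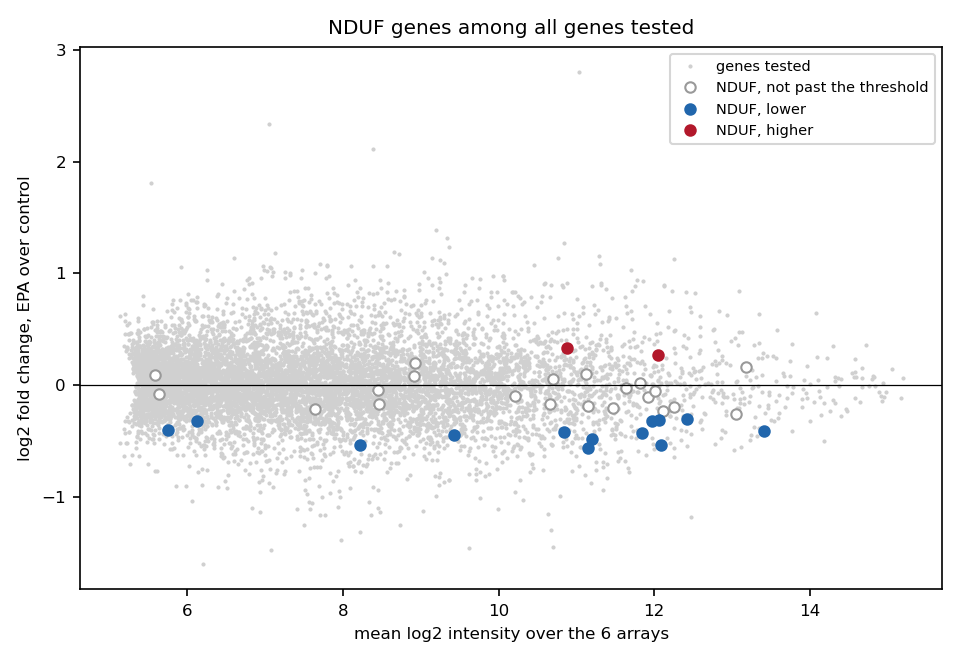
Mean log2 intensity over the 6 arrays against the log2 fold change of EPA over control, with all 9135 genes tested as grey dots and the 36 NDUF genes as larger points. The NDUF genes that fell (blue) are found at dim and bright intensities alike, between log2 fold changes of -0.56 and -0.30.

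The promoters of the NDUF genes were set side by side because 13 of the genes fell together. RefSeq windows from 250 bases before to 50 after the gene start (GRCm38.p6) were found for 33 of the 37 genes. The letters of 6 motifs were searched on both strands, without regard to overlap between motifs. The YY1-type letters AAGATGGC, which contain ATG and so can also mark a start codon, were held by 7 of 33 windows (21.2%), against 3.19% of 27025 genes with a window and 5.67% of the tested genes with one. They were in 4 of the 12 NDUF genes that fell, in 0 of the 2 that rose and in 3 of the 19 that did not pass. All 7 lay on the sense strand after the gene start. They are written 5′ to 3′ as 30-base stretches with the motif in capitals, the genes that fell first.

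Ndufc1 (lower, chr3:51408915-51408944, minus strand): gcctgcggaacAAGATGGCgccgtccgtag
Ndufs6 (lower, chr13:73328433-73328462, minus strand): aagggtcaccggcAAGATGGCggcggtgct
Ndufs4 (lower, chr13:114388045-114388074, minus strand): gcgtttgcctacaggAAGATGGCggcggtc
Ndufb8 (lower, chr19:44555393-44555422, minus strand): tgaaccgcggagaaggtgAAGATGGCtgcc
Ndufa9 (not past, chr6:126849097-126849126, minus strand): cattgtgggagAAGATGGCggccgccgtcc
Ndufa3 (not past, chr7:3617384-3617413, plus strand): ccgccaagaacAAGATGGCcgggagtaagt
Ndufs7 (not past, chr10:80249462-80249491, plus strand): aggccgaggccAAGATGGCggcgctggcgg

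The NRF-1-type letters GCGCATGC were in 3 of 33 windows (9.09%), against 6.23% of tested genes, and the ETS-type letters CCGGAAG in 5 of 33 (15.2%), against 21.6%. The GC box letters GGGCGG were in 48.5% of the NDUF windows and 71% of those of tested genes, and CCAAT in 33.3% and 43.7%. The CRE letters TGACGTCA were in 3 of 33 windows (9.09%), against 3.79% of tested genes. By call, the CRE letters were in 2 of 12 genes that fell, 1 of 2 that rose and 0 of 19 that did not pass, and the NRF-1-type letters in 1, 0 and 2 of the same groups. The ETS-type letters were in 1, 0 and 4 of them, the GC box letters in 5, 1 and 10, and CCAAT in 5, 0 and 6. With so few genes these splits are descriptions and were not tested. A match of letters is a description of the sequence and not a binding site. The 250 bases before the start are printed for the strongest fall among the genes with a window (Ndufs4), for the gene that fell and holds the NRF-1-type letters in both orientations (Ndufa11) and for the strongest rise (Ndufa10), with NRF-1-type, ETS-type, YY1-type and CRE letters in capitals.

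Ndufs4 (lower, chr13:114388095-114388344, minus strand): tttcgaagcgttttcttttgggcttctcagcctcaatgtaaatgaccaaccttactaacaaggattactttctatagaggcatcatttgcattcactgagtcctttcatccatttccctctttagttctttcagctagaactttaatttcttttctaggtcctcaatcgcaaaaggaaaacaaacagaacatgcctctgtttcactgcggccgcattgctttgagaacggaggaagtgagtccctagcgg
Ndufa11 (lower, chr17:56717512-56717761, plus strand): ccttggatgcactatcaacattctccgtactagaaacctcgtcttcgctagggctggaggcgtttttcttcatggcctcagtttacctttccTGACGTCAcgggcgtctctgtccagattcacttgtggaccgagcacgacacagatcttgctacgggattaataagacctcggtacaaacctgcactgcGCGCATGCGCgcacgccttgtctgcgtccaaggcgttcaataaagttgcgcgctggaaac
Ndufa10 (higher, chr1:92473759-92474008, minus strand): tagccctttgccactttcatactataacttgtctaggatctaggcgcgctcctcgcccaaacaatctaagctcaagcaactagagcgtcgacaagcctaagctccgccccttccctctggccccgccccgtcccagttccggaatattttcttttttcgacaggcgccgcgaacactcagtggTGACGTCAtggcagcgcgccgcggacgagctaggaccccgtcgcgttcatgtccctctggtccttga

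The Ndufa11 stretch holds the letters GCGCATGC on both strands, overlapping each other, and also the CRE letters. The Ndufa10 stretch holds the CRE letters, although one gene rose and the other fell, and the Ndufs4 stretch holds none of the 4 marked motifs in these 250 bases. By position the 13 genes that fell lay on 9 chromosomes, out of 15 that carry NDUF genes, so they did not form a single block.

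The N module holds the site where NADH is oxidised, and its called members did not all go the same way. Of 8 members tested 3 fell (37.5%), 1 rose (12.5%) and 4 did not pass, with a median log2 fold change of -0.22. For comparison, 15.9% of all genes tested fell and 18.8% rose. The 1 that rose, Ndufv1, was close to the threshold, and its call was lost under 8 of the 15 alternatives run. Ndufs4, an accessory subunit whose loss in mice causes a Leigh-like brain disease, read 1914, 1841 and 1846 with EPA, against 2661, 3004 and 2627 in control cells. The EPA arrays agreed closely and none reached the lowest control array. This was the strongest fall among the 36 NDUF targets tested (1.48-fold lower, log2 -0.56, SE 0.0773, limma adjusted p = 0.000518). Ndufs6, a zinc-binding accessory subunit of the same region, read 3752, 3906 and 3870 with EPA, against 4797, 4405 and 5100 in control cells, and fell 1.24-fold (log2 -0.31, SE 0.0771, limma adjusted p = 0.0124).

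The pair of core subunits at the tip of the N module, Ndufv1 and Ndufv2, parted. Ndufv1 binds NADH and the flavin, and Ndufv2 is its iron-sulphur partner. Ndufv1 read 4063, 5150 and 4836 with EPA, against 4003, 3839 and 3752 in control cells. EPA replicate 1 was barely above the highest control array, and the other two were well above it. Ndufv1 rose 1.21-fold (log2 0.27, SE 0.0942, limma adjusted p = 0.0491), and this call was lost without EPA replicate 2 (limma adjusted p = 0.161), EPA replicate 3 (0.135), control replicate 1 (0.0782), control replicate 2 (0.106) or control replicate 3 (0.124). Ndufv2 read 4868, 4899 and 5118 with EPA, against 5842, 5842 and 6658 in control cells, and the groups did not overlap. It fell 1.23-fold (log2 -0.30, SE 0.0782, limma adjusted p = 0.0153), a call lost without control replicate 3 (limma adjusted p = 0.0573).

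Other N module genes stayed under the threshold. Ndufa12, an accessory subunit that joins the complex late, had a log2 fold change of 0.02 with a 95% interval of -0.19 to 0.22. Ndufa7, Ndufa2 and Ndufa6 had log2 fold changes of -0.25, -0.19 and -0.18 with limma adjusted p-values of 0.0622, 0.0519 and 0.122. Ndufa2 read 4616, 4491 and 4593 with EPA, against 5342, 5150 and 5134 in control cells. Its groups were separate, although its adjusted p lay just past the threshold.

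None of the 6 Q module genes passed the test, in either direction, and 1 of them had an unadjusted limma p under 0.05. Over all genes tested 34.7% passed, and whether so small a group differs from that share was not tested. Their median log2 fold change was 0.02. For Ndufs3, Ndufs7 and Ndufs8, core subunits of this module, the 95% intervals of the log2 fold change were -0.14 to 0.25, -0.20 to 0.15 and -0.23 to 0.13. Ndufa5 and Ndufa9, accessory subunits, had log2 fold changes of -0.09 and 0.10.

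In the proximal membrane arm 3 of 8 genes fell (37.5%), 1 rose (12.5%) and 4 did not pass, with a median log2 fold change of -0.21. The shares over all genes tested were 15.9% lower and 18.8% higher. Ndufa11, a membrane-spanning accessory subunit, read 1923, 2066 and 2007 with EPA, against 2831, 2609 and 2914 in control cells. Every EPA array was well below every control array (1.39-fold lower, log2 -0.48, SE 0.0747, limma adjusted p = 0.00108). Ndufc1, a small membrane arm subunit, read 3598, 2989 and 2934 with EPA, against 4364, 4163 and 4246 in control cells (1.35-fold lower, SE of log2 0.0898, limma adjusted p = 0.00508). Its partner Ndufc2 read 1413, 1683 and 1658 with EPA, against 2127, 1929 and 2294 in control cells (1.34-fold lower, SE of log2 0.0954, limma adjusted p = 0.00788). Neither gene had overlapping groups.

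Ndufa10, a membrane arm subunit with the fold of a nucleoside kinase, rose. It read 2120, 2109 and 2127 with EPA, against 1619, 1755 and 1683 in control cells. The EPA values were nearly equal and lay far above the controls (1.26-fold higher, log2 0.33, SE 0.069, limma adjusted p = 0.00507). Ndufa13, also known as GRIM-19, read 9767, 9941 and 9833 with EPA, against 9166, 8235 and 8966 in control cells. Its groups were separate, and it did not pass (log2 0.17, limma adjusted p = 0.104). Ndufa1, Ndufa3 and Ndufa8 stayed under the threshold, with log2 fold changes of -0.23, -0.20 and -0.10. A second, dimmer target of Ndufa3 had a log2 fold change of -0.26 (limma adjusted p = 0.0607). With the targets of each gene averaged, Ndufa3 passed (log2 -0.23, limma adjusted p = 0.0355).

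The distal membrane arm is built largely of NDUFB subunits, and 5 of its 11 genes fell, 0 rose and 6 did not pass (limma, with 0 higher also at an unadjusted p under 0.05). The share that fell was 45.5%, where 15.9% of all genes tested fell and 18.8% rose. The median log2 fold change of the 11 genes was -0.21. Ndufb6 read 3640, 3621 and 3640 with EPA, against 5401, 5100 and 5241 in control cells. The EPA arrays were almost identical and the groups lay far apart (1.44-fold lower, log2 -0.53, SE 0.0673, limma adjusted p = 0.000336). Ndufb9, one of the LYR-motif subunits that hold the acyl carrier protein, read 254, 223 and 266 with EPA, against 349, 405 and 323 in control cells, and was also lower on every EPA array (1.45-fold lower, limma adjusted p = 0.00321).

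Ndufb8, a subunit whose protein is widely used as a marker of assembled complex I, read 3714, 3611 and 3413 with EPA, against 4491, 4516 and 4416 in control cells, with a wide gap between the groups (1.25-fold lower, SE of log2 0.0696, limma adjusted p = 0.00604). Ndufb4 and Ndufb2 were dim. Ndufb4 read 48.9, 43.2 and 48.3 with EPA, against 58.5, 65.7 and 60.6 in control cells, and Ndufb2 read 63, 64.2 and 60.6 with EPA, against 79.2, 81.5 and 73.1 in control cells. Both sets stood near the background limit and did not overlap between groups. Subtracting the background level moved Ndufb4 to a log2 fold change of -0.87, against -0.40 as tested, and Ndufb2 to -0.53, against -0.32. The 5 further NDUFB genes, Ndufb3, Ndufb5, Ndufb7, Ndufb10 and Ndufb11, had log2 fold changes between -0.21 and -0.04. Ndufab1, the mitochondrial acyl carrier protein, lay near background with 44.1, 53.8 and 51.4 for EPA, against 50.6, 41.5 and 47.6 in control cells, and its groups overlapped.

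Set side by side by gene family, 5 of 10 NDUFB genes fell and 0 rose by limma (0 also at an unadjusted p under 0.05), with 10 of 10 negative values and a median log2 fold change of -0.26. In the NDUFA family 2 of 13 fell (Ndufa11 and Ndufa4) and 1 rose, with a median of -0.18. Both NDUFC genes fell, 2 of 6 NDUFS genes fell with a median of -0.04, and of the NDUFV genes 1 fell and 1 rose. Of the nuclear core subunits 1 of 6 fell and 1 rose, with a median of 0.02, and of the 27 accessory subunits 10 fell and 1 rose, with a median of -0.20. Over all genes tested 15.9% fell and 18.8% rose. The shares that fell among NDUFA genes (15.4%) and nuclear core subunits (16.7%) lay near the first of these. All these counts are descriptions of small groups, and the differences between the groups were not tested. Ndufa4, the member that belongs to cytochrome c oxidase, read 10874, 9521 and 8188 with EPA, against 12045, 12770 and 12770 in control cells, and fell 1.32-fold (log2 -0.40, SE 0.102, limma adjusted p = 0.0128).

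**Figure D4:**
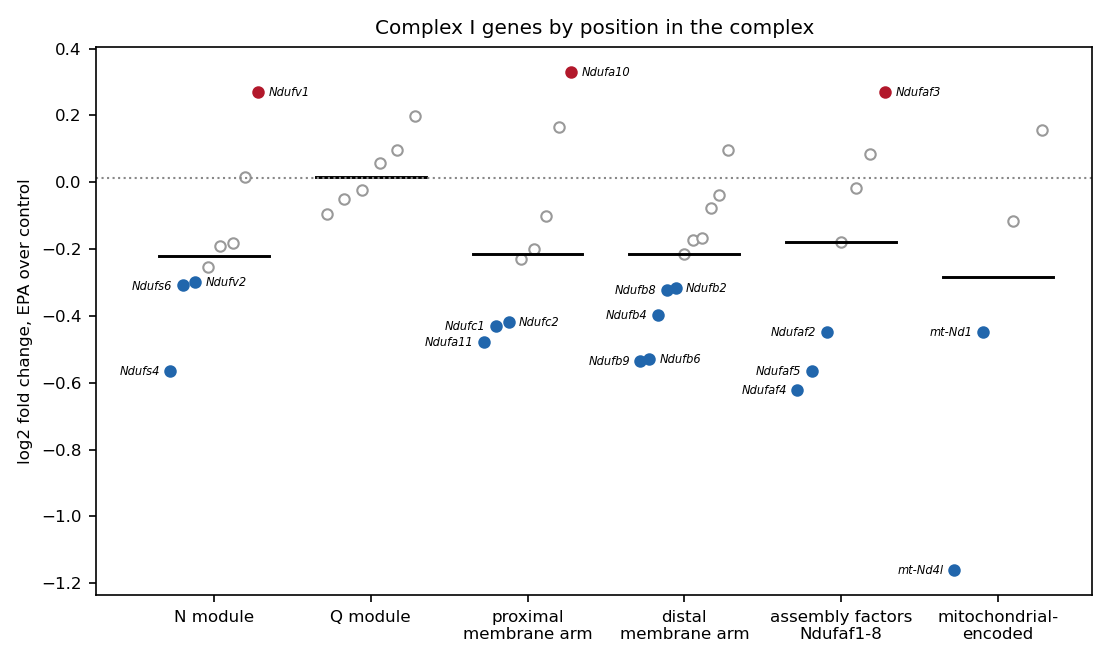
Log2 fold change of EPA over control for complex I genes by their place in the complex, with each gene as a point, black bars for group medians and a dotted line for the median of all genes tested. The first 4 columns hold NDUF targets, and the last 2 hold the Ndufaf genes under any target ID and the mitochondrial-encoded subunits. None of the 6 Q module genes is past the threshold (filled), where 34.7% of all genes tested are, and mt-Nd4l at -1.16 lies lowest.

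Assembly factors were split. By target ID the set held 2 of them. Ndufaf2, a paralogue of Ndufa12 that stands in for it during assembly, read 612, 557 and 598 with EPA, against 748, 878 and 786 in control cells. All EPA values were below all control values (1.36-fold lower, log2 -0.45, SE 0.0829, limma adjusted p = 0.00272). Ndufaf1, which helps to build the membrane arm, had a log2 fold change of 0.08 and overlapping groups.

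Further genes of the family stood in the table under older clone names, and RefSeq synonyms paired them with their symbols. They are outside the 37 and were picked after the identifiers had been seen. Of 6 tested, 2 fell (33.3%), 1 rose (16.7%) and 3 did not pass, where 15.9% of all genes tested fell and 18.8% rose. Ndufaf4, which acts early in building the Q module, read 1235, 1013 and 1034 with EPA, against 1604, 1767 and 1661 in control cells (1.54-fold lower, limma adjusted p = 0.000759). A second target of Ndufaf4 gave 346, 351 and 336 with EPA, against 537, 509 and 500 in control cells, so both targets fell (log2 -0.58 for the second, limma adjusted p = 0.000249).

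Ndufaf5, which hydroxylates the core subunit Ndufs7, fell to 350 ± 34.2 in EPA cells, against 517 ± 19.6 in control cells (SD, n = 3 arrays each; 1.48-fold lower, limma adjusted p = 0.000945). Ndufaf3, a partner of Ndufaf4, was dim and rose 1.21-fold to 66.7 ± 6.79 in EPA cells, against 55.2 ± 2.59 in control cells (limma adjusted p = 0.0386), and this call was lost without EPA replicate 1 or 3 or any 1 of the 3 control replicates (limma adjusted p between 0.0523 and 0.102). Ndufaf7, Ndufaf8 and the N module subunit Ndufv3 were not called, at log2 fold changes of -0.02, -0.18 and -0.20, Ndufv3 with a limma adjusted p of 0.0502. Ndufaf6 was below background on all 6 arrays.

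Of 10 measured assembly factors named otherwise, 6 fell, 0 rose and 4 did not pass by limma (0 higher at an unadjusted p under 0.05), with a median log2 fold change of -0.25. The share that fell was 60.0%, where 15.9% of all genes tested fell and 18.8% rose. Tmem126a, linked to assembly of the distal membrane arm, was 1.84-fold lower, with 1723 ± 99.5 in EPA cells and 3161 ± 97.7 in control cells (limma adjusted p = 4.33e-05). Tmem70, Dmac1 and Tmem126b were 1.55-fold, 1.31-fold and 1.25-fold lower.

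The subunits encoded in mitochondrial DNA did not move together. Of the 7 such genes 4 were tested by limma, 2 fell, 0 rose (0 also at an unadjusted p under 0.05) and 2 did not pass. Among all genes tested 15.9% fell and 18.8% rose, and 4 genes are too few to set against these shares. mt-Nd4l read 152, 137 and 149 with EPA, against 310, 372 and 300 in control cells. No EPA value came near the lowest control value (2.24-fold lower, log2 -1.16, 95% interval -1.37 to -0.95, limma adjusted p = 4.02e-05). mt-Nd4, whose reading frame shares a transcript with that of mt-Nd4l, read 22582, 25141 and 23208 with EPA, against 26322, 24738 and 25758 in control cells, with overlapping groups (log2 -0.12, 95% interval -0.28 to 0.05, limma adjusted p = 0.251). Only 40 of the 30828 targets were brighter than mt-Nd4 on average, and whether the signal of this target was near the ceiling of the scanner was not tested.

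mt-Nd1 fell to 8352 ± 1177 in EPA cells, against 11356 ± 1063 in control cells (1.36-fold lower, limma adjusted p = 0.0113), mt-Nd5 stayed under the threshold at a log2 fold change of 0.16, and mt-Nd6 was below background.

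Genes of the other respiratory complexes gave the setting. Of 7 complex II genes 4 fell and 0 rose by limma (0 higher at an unadjusted p under 0.05, median log2 fold change -0.38), and all 4 were assembly factors, Sdhaf1, Sdhaf2, Sdhaf3 and Sdhaf4. In complex III 3 of 12 fell and 0 rose by limma (1 higher at an unadjusted p under 0.05, median -0.14), in complex IV 9 of 24 fell and 1 rose (median -0.08), and in ATP synthase 6 of 17 fell and 1 rose (median -0.23). Named examples are Uqcrb in complex III (2.48-fold lower), the complex IV factor Coa6 (1.60-fold lower) and Atp5b, the catalytic subunit of ATP synthase (1.28-fold higher). The shares that fell were 57.1%, 25.0%, 37.5% and 35.3% in complexes II, III and IV and ATP synthase. Over all genes tested 15.9% fell and 18.8% rose, and among genes with a mean intensity of 1000 or more 22.6% fell and 23.2% rose. The complex III share that fell lay near that of these bright genes. More calls ran downward than upward in each of these lists, as for NDUF genes, and whether complex I differed from them was not tested.

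**Figure D5:**
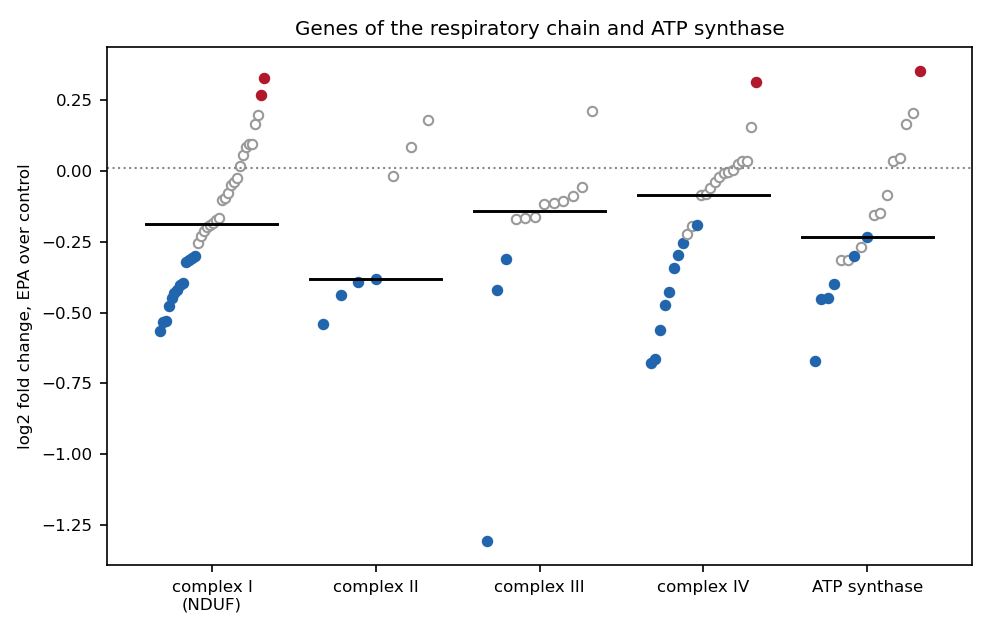
Log2 fold change of EPA over control for genes of complex I (the 36 NDUF genes tested, Ndufa4 included), complexes II, III and IV and ATP synthase, subunits and assembly factors together. Black bars are list medians, the dotted line is the median of all genes tested, blue and red points are calls lower and higher, and open points did not pass. Medians run from -0.38 in complex II to -0.08 in complex IV.

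Iron-sulphur clusters are inserted into several complex I subunits. Of 13 measured genes of cluster supply 5 fell (38.5%) and 1 rose (7.69%), where 15.9% of all genes tested fell and 18.8% rose. The list had 7 positive and 6 negative values and a median log2 fold change of 0.03. At an unadjusted limma p under 0.05, 5 of these genes were lower and 4 higher. Among those that fell, the mitochondrial iron importers Slc25a37 and Slc25a28 were 1.57-fold and 1.44-fold lower and Bola3 was 1.43-fold lower. Among 11 measured regulators of respiratory genes 3 fell (27.3%) and 1 rose (9.09%), with a median of -0.18. Tfb1m, a mitochondrial rRNA methyltransferase, was 1.35-fold lower, at 60.6 ± 5.16 with EPA and 82.3 ± 11.9 in control cells. Hif1a was 1.54-fold higher, at 90.8 ± 11.6 with EPA and 59.1 ± 8.31 in control cells. Both were dim, not far above the background limit of 40.22. Pprc1, a coactivator of the PGC-1 family, was 1.19-fold lower, and Nrf1, an activator of respiratory genes, fell by 0.26 on the log2 scale.

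In the authors' deposited table, which holds their own EPA-to-control ratios, there are 15 of the 37 NDUF targets, 14 of them with a ratio below 1 and 1 above. Of these 15, 13 passed the test here, and Ndufa2 and Ndufa3 did not. In the other direction 2 genes called here, Ndufa4 and Ndufv1, are not among the rows of the authors' deposited table. The log2 values of the authors' deposited table differed from those given here by at most 0.0061. The direction of the authors' ratios was set against the intensities used here. Both come from the same series, so the match adds no separate evidence.

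Without the filter on dim targets, which raises the number of genes tested to 19970, 5 NDUF genes fell and 0 rose by limma (2 rose at an unadjusted p under 0.05). The 5 were Ndufs4, Ndufb6, Ndufb9, Ndufa11 and Ndufaf2, and they also kept their calls under each of the 15 alternatives run. RefSeq lists pseudogenes or copies by name for Ndufa11, Ndufa12, Ndufab1, Ndufb4 and Ndufs6, and whether their probes tell the copies apart was not tested.

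The cells' own markers were checked beside these values. Of 16 epithelial and intestinal markers 2 were above background (Krt8 and Cldn7) and neither passed, with Epcam, Cdh1, Vil1 and Cdx2 below background. Of 18 immune markers 4 were above background, and Cd79a matched no target. Cd68, Lyz1 and Cd14 did not pass, at log2 fold changes of 0.13, 0.11 and -0.02. The other, Ms4a1, read 53.4 ± 3.13 with EPA and 37.3 ± 1.39 in control cells (SD, n = 3 arrays each). Its control mean lies under the background limit, so it was tested only through the EPA arrays and its size of change is not given, while Ptprc and Cd3e did not pass the background limit. Of 6 mesenchymal markers 4 rose, 1 fell and 1 was below background (Vim 1.80-fold higher, Snai2 1.61-fold lower), and their summed intensity was 8435 to 9142 with EPA and 5625 to 6265 in control cells. Of 14 fibroblast and endothelial markers 4 rose, 1 fell, 1 did not pass and 8 were below background, Pecam1, Cdh5, Lum and Col1a1 among them. Those that rose were Dcn (2.10-fold higher), Col1a2 (1.82-fold), Pdgfra (1.78-fold) and Pdgfrb (1.53-fold), and S100a4 fell to 1111 ± 77.9 with EPA, against 1538 ± 37.5 in control cells. Their summed intensities, in which S100a4 weighs against the risers, were 2651 to 2768 with EPA and 2621 to 2689 in control cells, while the median log2 fold change of the 6 tested was 0.72. Beside these counts, 18.8% of all genes tested rose and 15.9% fell. The part of these marker changes in the NDUF values was not tested. In bulk RNA, fewer cells of a type and less RNA per cell cannot be told apart.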

How the data were processed

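MC38 RNA from 3 EPA and 3 control samples was labelled as biotinylated cRNA and read on Illumina arrays, per the labels' protocols. Per the file headers, the arrays carried MouseWG-6 v2 content and were exported from GenomeStudio 1.7.0 after quantile normalisation. The deposited intensity values of the series table were used. Ranked intensities of the 6 arrays were within 0.465% of each other and each array's median was 35.2, which hides any shift of a whole array. How the authors combined probes of a target (22 NDUF targets have 1 probe, 15 have several) or treated background was not found in the headers or labels. The deposited ratio and log2 columns of the authors' comparison were used only as quoted, and probe numbers only to count probes. In the other deposited files, 102 columns of per-array values match no sample label and were not used.

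Targets were named through RefSeq (GRCm38.p6) symbols and single synonyms. The background limit, 40.22, is the mode of the intensities (28.53) plus a one-sided level of 0.05 of the spread below it (SD 7.108). Each gene was represented by its brightest target, which left 9135 genes. The test was run on log2 intensity in limma 3.58.1 under R 4.3.3 (lmFit, eBayes, two-sided, Benjamini-Hochberg over all genes tested, threshold 0.05), after a check on simulated data. Folds are ratios of geometric means, and for dim genes they are too small, since background is included. Values for second targets come from a fit that kept every target. Arrays of the same group correlated over genes at 0.994 to 0.997, and arrays of different groups at 0.983 to 0.985. With 3 arrays a group, their number limits the precision. An exact permutation test of 3 against 3 cannot go below p = 0.1 and was not used.

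The genes named are all NDUF members and, of each other list, up to 4 called genes with the smallest p. The members, lists and motifs were chosen with earlier results of these data known. Values of some items are not reported here, and one tested gene is not drawn in the plot by gene family.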

Additional observations from a re-analysis of the deposited data

How the results depend on the processing

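Over 15 alternatives the direction of all 15 called NDUF genes was kept, and 5 of them kept their call throughout. Without the filter on dim targets, which raises the genes tested to 19970, the calls over all genes came to 731 higher and 583 lower instead of 1715 and 1451, and those of NDUF genes to 0 higher and 5 lower instead of 2 and 13. Leaving out each replicate in turn gave 1 to 3 NDUF genes higher and 12 to 14 lower, and calls over all genes of 1312 to 1604 higher and 1086 to 1374 lower. With the background level subtracted 1 NDUF gene was higher. With the replicate number as a block 1 NDUF gene was higher and 13 were lower, with 1595 higher and 1350 lower over all genes. Deviations of same-numbered arrays correlated at -0.035, -0.191 and 0.116, and those of differently numbered arrays at -0.225 to 0.252. Not every array correlated best with its own number. Deviations from the mean of only 3 arrays cannot show whether same-numbered samples were handled together. For genes near 0 that did not pass, leaving out 1 replicate turned the sign, with log2 fold changes from -0.07 to 0.08 for Ndufa12, -0.16 to 0.05 for Ndufb11, -0.02 to 0.14 for Ndufs3, -0.09 to 0.01 for Ndufs7, -0.10 to 0.01 for Ndufs8 and -0.11 to 0.05 for Ndufaf7. A further 6 NDUF genes passed under at least 1 alternative. Signal near background limits Ndufb2, Ndufb4, Ndufb11, Ndufab1 and Ndufaf3.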
